A study of Bos taurus with 39 samples.

Results

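Denuded bovine oocytes matured alone (DO) were compared with denuded oocytes that shared the medium with intact cumulus-oocyte complexes (co-culture), at the start and at the end of in vitro maturation. The samples were chosen by their labels, as those titled Coculture or Denuded at 1 h and 22 h, and made up 12 of the 39 samples of the series, with 3 per group and time. All oocytes came from ovaries of slaughtered cattle, and in both groups the cumulus cells had been stripped by vortexing in hyaluronidase. In the co-culture group the denuded oocytes and the complexes were kept apart by a porous insert, so that medium and secreted material were shared without contact. All groups matured in TCM-199 with epidermal growth factor and gentamicin. The other groups of the series were intact complexes matured normally and complexes treated with the gap junction blocker carbenoxolone. Each library was a pool of oocytes from several cattle, whose age and breed were not given in the sources used here. At 1 h the oocytes were expected by the study to be at the germinal vesicle stage and at 22 h at metaphase II. The comparison asks whether miRNAs of the denuded oocyte differ when secretions of the complexes are present. By the study's methods the experiment was repeated and each library joined oocytes of 2 repeats, with the ovary pool entered as a batch, while the labels give only a replicate number.

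A miRNA is a short RNA that guides Argonaute proteins to messenger RNAs by pairing mainly through its seed, the bases 2 to 8 from its 5′ end, and it lowers their translation or stability. Cumulus cells feed the oocyte through gap junctions at the tips of projections that cross the zona pellucida, and they also secrete factors and extracellular vesicles, which carry miRNAs. Denuding cuts the first route, and a shared medium leaves the second open. The fully grown oocyte transcribes little, and miRNA activity is low in mouse oocytes.

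The miRNAs are named as in miRBase for the known ones (bta-, for Bos taurus). The others were predicted from the reads by the study and are called predicted miRNAs here. The sequences below are those of predicted miRNAs on which the comparison turned, with the seed in capitals and 5′ to 3′. The hairpin positions are those given for ARS-UCD1.2, the cattle genome build of the study, and the study's tables name no gene there. The first is the only miRNA that was higher in DO at both times with an unadjusted p under 0.05.
predicted miR-79: uGCAAGAUuuuaagcaugaccuu
It lies in chr11:97182562-97182675, minus strand. The next 3 had negative log2 fold changes of DO over co-culture at 1 h and positive ones at 22 h, and all 3 consist of G and C alone (100% GC), as no other of the 18 predicted miRNAs with a printed sequence does.
predicted miR-559: gGCGCGCCcccgccgcgc
predicted miR-318-0: gCGCGCCCccgccgcgcg
predicted miR-895: gCGCCCCCggggccgcgg
Their hairpins were placed at chr27:6219131-6219238, minus strand, at chr17:69639696-69639803, plus strand and at chr9:93405029-93405136, plus strand. The end of predicted miR-559 and the start of predicted miR-318-0 share 17 bases, so that the seeds GCGCGCC and CGCGCCC are the same stretch shifted by 1 base, and the share of reads counted to each is uncertain. Predicted miR-560 has counts identical to those of miR-559 in every sample and is not a separate measurement. The last 2 had among the smallest unadjusted p at 22 h, with fold changes in opposite directions, and neither was called.
predicted miR-879: uCUGCUGGaacugcaacu
predicted miR-321: uCAGACGGuaaagcaucugccug
They lie in chr8:63779353-63779460, minus strand, and in chr17:26339280-26339394, minus strand. No sequence was printed for predicted miR-319 and miR-835, which behaved like miR-318-0 and miR-559.

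The deposited values were whole counts of reads per miRNA, between 32676 and 158481 per sample (median 74912), with the shallowest library in DO replicate 2 at 1 h. Between 862 and 1106 miRNAs had a count in a sample, and known miRNAs made up between 39.9% and 44.3% of counts. Levels are given as CPM, counts scaled to a common library total, where 3 counts equalled 18.9 CPM in the deepest library and 91.8 CPM in the shallowest, and floors cover counting error only. The CPM are after TMM scaling, which adjusts for a few dominant miRNAs, within each time. The fold changes are log2 of DO over co-culture from edgeR's quasi-likelihood test with the replicate number as a block. A miRNA is called changed where its Benjamini-Hochberg adjusted p is under 0.05 and its log2 fold change is 1 or more in size. DO and co-culture showed no difference past the threshold in the share of known miRNAs (exact paired sign-flip test over 6 pairs, two-sided, p = 0.406, smallest possible p = 0.031) or in the number detected (p = 0.344), where higher values were seen in DO in 2 of 6 pairs for both.

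At 1 h no miRNA was called among 465 tested, of which 117 were known and 348 predicted, a share of 0%. By unadjusted p under 0.05, 22 miRNAs stood out (4.73% of those tested), with 13 higher and 9 lower in DO, and only 1 of the 22 was known. Counting miRNAs with identical counts once left 21. The smallest adjusted p was 0.591 by edgeR, and DESeq2 called 0 miRNAs as well, with 11 at an unadjusted p under 0.05. The fold changes were centred on -0.031 and the interquartile range ran from -0.24 to 0.19.

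The smallest unadjusted p at 1 h was that of predicted miR-79, whose levels were 277, 413 and 1300.0 CPM in co-culture replicates 1, 2 and 3 and 1573, 1406 and 1772 CPM in the same-numbered DO replicates, the order kept below. Every DO sample lay above every co-culture sample, although co-culture replicate 3 came close, and the groups averaged 1584 ± 183 and 663 ± 556 CPM (SD, n = 3). The log2 fold change was 1.51 (SE 0.40, 95% interval 0.64 to 2.38, edgeR adjusted p = 0.591). Predicted miR-475, a rarer miRNA, had 41.5, 74.1 and 134 CPM in co-culture and 148, 392 and 178 CPM in DO. Its DO samples also lay above the co-culture samples, at a log2 fold change of 1.45 (1.45 ± 0.49 (SE), 95% interval 0.37 to 2.53, edgeR adjusted p = 0.591). The nearest samples of the groups were at 134 and 148 CPM. In co-culture replicate 1 the level was near the floor, where 3 counts equalled 40.3 CPM.

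For other predicted miRNAs higher in DO at 1 h, 1 library was far above the rest. Predicted miR-838 measured 2586, 3568 and 1434 CPM in co-culture and 3351, 15111 and 1951 CPM in DO. DO replicate 2, the shallowest library, was the highest. The same library was the highest for predicted miR-440 (1537 CPM against at most 328 in co-culture), miR-867 (5200.4 against at most 1091) and miR-85 (2257 against at most 572). Their log2 fold changes were 0.97, 1.42, 1.01 and 0.98 with all samples and 0.45, 0.75, 0.29 and 0.28 without replicate 2, and the part of depth in these values was not tested. Predicted miR-620 (1.01), miR-668 (0.75) and miR-723 (0.56) had every DO sample above every co-culture sample.

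The known miRNA with an unadjusted p under 0.05 at 1 h was miR-105b, lower in DO. It had 1106, 1313 and 871 CPM in co-culture and 558.6, 294 and 688 CPM in DO. The groups did not overlap, and the log2 fold change was -1.06 (SE 0.37, edgeR adjusted p = 0.591). With 1 pair left out it ran from -1.50 to -0.62, and it was closest to 0 without replicate 2, whose DO library was the shallowest. Among the predicted miRNAs lower in DO were the GC-rich ones shown above. Predicted miR-735, with means of 10267 ± 2175 CPM in co-culture and 5964 ± 2615 CPM in DO (SD, n = 3), had a log2 fold change of -0.86 with overlapping groups, and predicted miR-514 had nearly the same counts.

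Across the 465 miRNAs, 115 went the same way in all 3 pairs (24.7%) and 31 had groups that did not overlap (6.67%), with 14 of these higher and 17 lower in DO. Of the 22 at an unadjusted p under 0.05, 15 went one way in all 3 pairs and 12 had groups that did not overlap, as their choice by p from the same pairs favours. The 95% interval of the log2 fold change had a median half-width of 0.77, and lay within ±1 for 232 miRNAs (49.9%). It lay within ±1 for 48 of the 57 miRNAs above 3000 CPM (84.2%) and for 35 of the 155 under 300 CPM (22.6%), so that for most rare miRNAs a log2 change of 1 was within the interval at this depth.

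**Figure D1:**
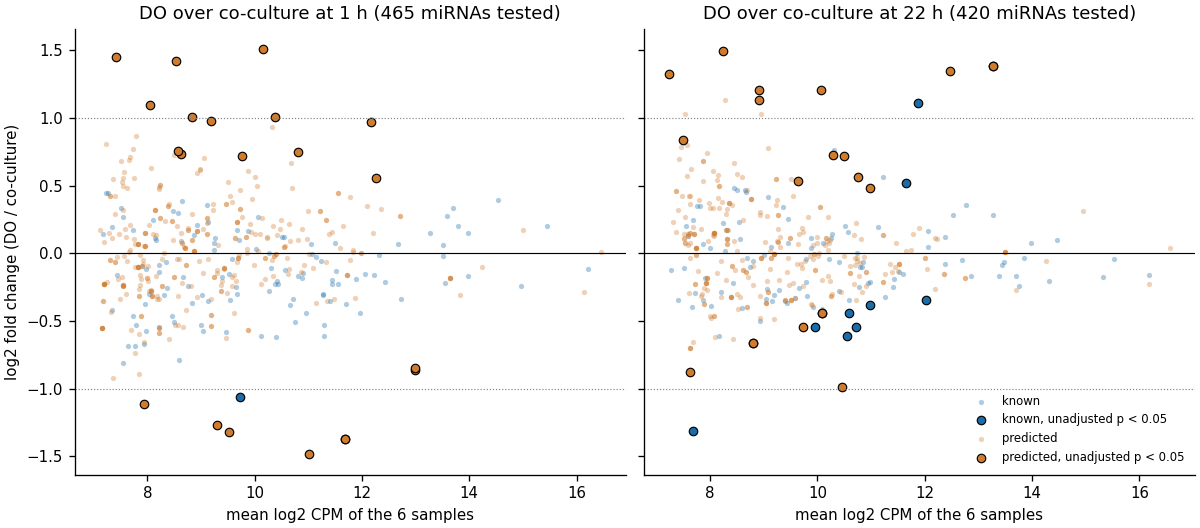
Log2 fold change of DO over co-culture (vertical) against the mean log2 CPM of the 6 samples (horizontal), for 465 miRNAs at 1 h and 420 at 22 h; each point is 1 miRNA, blue for known and orange for predicted, outlined at an unadjusted p under 0.05, and dotted lines mark ±1. Points with an outline number 22 at 1 h and 30 at 22 h, and none passed the adjusted threshold.

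At 22 h no miRNA was called among 420 tested (0%), of which 108 were known and 312 predicted. By unadjusted p under 0.05, 30 stood out (7.14%), 16 higher and 14 lower in DO, and 9 of them were known. Counting miRNAs with identical counts once left 27. The smallest adjusted p was 0.059, shared by predicted miR-79 and predicted miR-321. DESeq2 called predicted miR-559, its copy miR-560 and miR-835, all higher in DO, with 12 miRNAs at an unadjusted p under 0.05.

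Predicted miR-79 was again higher in DO. Its levels were 398, 962 and 614 CPM in co-culture and 928, 1776 and 1787 CPM in DO. Every DO sample exceeded its own co-culture partner, while the lowest DO sample lay just below the highest co-culture sample. The log2 fold change was 1.21 (SE 0.20, 95% interval 0.76 to 1.66, edgeR adjusted p = 0.0593). Predicted miR-321 went the other way, with 1193, 2109.9 and 2264 CPM in co-culture and 614, 975 and 1208 CPM in DO. All 3 DO samples were lower than their partners, at a log2 fold change of -0.99 (SE 0.16, adjusted p = 0.0593), and at 1 h its levels ran from 512 to 3793 CPM in co-culture, around the DO samples.

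Predicted miR-879 separated the groups at 22 h. It had 108, 203 and 161 CPM in co-culture and 382, 453 and 451 CPM in DO. Each DO sample was above each co-culture sample, at a log2 fold change of 1.50 (SE 0.29, edgeR adjusted p = 0.118). At 1 h the groups overlapped and averaged 241 ± 83.6 and 234 ± 156 CPM (SD, n = 3). Predicted miR-134, with 1.13 at 22 h, was higher in DO in 3 of 3 pairs.

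miR-155, a regulator of immune cell responses, had the largest positive value at 22 h among known miRNAs with an unadjusted p under 0.05. Its levels were 2204, 1604 and 2980.0 CPM in co-culture and 2731, 7872 and 5249 CPM in DO. The groups overlapped at 2980.0 and 2731 CPM, and the log2 fold change was 1.11 (SE 0.33, edgeR adjusted p = 0.347), running from 0.60 to 1.54 with 1 pair left out and lowest without replicate 2. At 1 h miR-155 was rare, at 240.4 CPM in co-culture and 309.8 CPM in DO, and in the same comparison at 6 h its log2 value was -1.15. The fold change at 1 h was 0.25 with all pairs and ran from -0.51 to 1.60 when 1 pair was left out. Of the fits run, miR-155 was past the threshold without replicate 1 and in no other (adjusted p = 0.029 at 1 h and 0.042 at 22 h).

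The other known miRNA that was higher in DO at 22 h with an unadjusted p under 0.05 was let-7c, a member of the let-7 family, which holds back growth genes such as HMGA2 and LIN28. It had 2170.4, 3072 and 2615 CPM in co-culture and 3072, 4006 and 4186 CPM in DO, so that the lowest DO sample equalled the highest co-culture sample to the digit shown, and a log2 fold change of 0.52 (adjusted p = 0.347). The 7 known miRNAs on the other side included miR-301a (-1.31), a member of the miR-130 family, miR-503-5p (-0.61), a cell cycle inhibitor, miR-767 (-0.54), miR-143 (-0.44), abundant in smooth muscle, and miR-101 (-0.38), which targets the methyltransferase EZH2. The adjusted p of these 5 was between 0.347 and 0.661. miR-301a was rare, at 206, 218 and 317 CPM in co-culture and 82, 141 and 79 CPM in DO, scaled with all samples of the time. In these DO libraries 3 counts equalled 39.8, 51.2 and 46.4 CPM. Predicted miR-242 (-0.44) and miR-906 (-0.54) were lower in DO with no overlap between groups.

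At 22 h, 131 of 420 miRNAs went one way in all 3 pairs (31.2%) and 45 had groups that did not overlap (10.7%), 17 of them higher and 28 lower in DO. Of the 30 with an unadjusted p under 0.05, 29 went one way in all 3 pairs and 17 had groups that did not overlap. Their choice by p from the same pairs favours both, so these counts are not further evidence. The median half-width of the 95% interval was 0.60, and the interval lay within ±1 for 286 miRNAs (68.1%). It lay within ±1 for 46 of the 51 above 3000 CPM (90.2%).

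Start and end of maturation were then set side by side. Of 404 miRNAs tested at both times, 210 had the same sign (52.0%), and the log2 fold changes had a Pearson correlation of -0.025 and a Spearman correlation of 0.069 across miRNAs, which are not independent replicates. The times share no sample. With an unadjusted p under 0.05 at both times there were 7 miRNAs, and 6 of these had opposite directions. No miRNA was called as changed between the times in the interaction test over 12 samples (499 tested, 19 with an unadjusted p under 0.05, 3.81%, smallest adjusted p = 0.141), nor by DESeq2 (12 with an unadjusted p under 0.05). No miRNA was called for a difference common to both times by edgeR (499 tested, 22 with an unadjusted p under 0.05, 4.41%, smallest adjusted p = 0.083), while DESeq2 called 1, predicted miR-79.

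**Figure D2:**
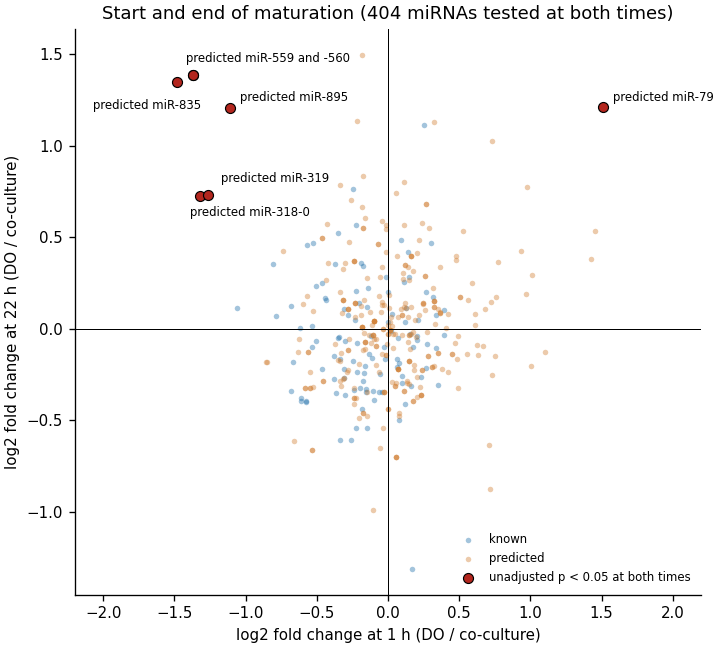
Log2 fold change of DO over co-culture at 1 h (horizontal) and at 22 h (vertical) for 404 miRNAs tested at both times, with red points for an unadjusted p under 0.05 at both. Predicted miR-79 lies in the upper right and the other 6 red points, of which miR-559 and miR-560 coincide, in the upper left.

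Predicted miR-79 was the 1 miRNA of the 7 that was higher in DO at both times. It was higher in 6 of 6 pairs, as its choice for 2 values in this direction favours, with a common log2 fold change of 1.37 (SE 0.24, 95% interval 0.84 to 1.91, edgeR adjusted p = 0.083). The change between the times was -0.24 (SE 0.50, adjusted p = 0.978). At 6 h, between the times, its value in the same comparison was 0.52. The intact and carbenoxolone-treated complexes, scaled with all samples of the time, averaged 1263 and 2268 CPM at 1 h, beside 647 in co-culture and 1574 in DO. At 22 h they averaged 1457 and 971 CPM, beside 652 and 1495. Single libraries of intact complexes ran from 304 to 2589 CPM at 1 h and from 472 to 2534 CPM at 22 h. Those of treated complexes ran from 1898 to 2921 CPM and from 328 to 1473 CPM. The intact complexes at both times and the treated ones at 22 h thus overlapped both co-culture and DO. Past the threshold under 4 of 13 alternative settings of the common fit, it was not called under the others.

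The 6 with opposite directions were predicted miR-318-0, miR-319, miR-559 with its copy miR-560, miR-835 and miR-895, so 5 sets of counts. These 5 were not independent, since miR-319 followed miR-318-0 and miR-835 followed miR-559 from sample to sample. Scaled with all samples of the time, miR-319 had 641, 1869 and 1966 CPM in DO at 22 h, beside 709, 2186 and 2235 CPM for miR-318-0. Predicted miR-559, the most abundant, had 5918, 4701 and 2962 CPM in co-culture and 1892, 654 and 3340.2 CPM in DO at 1 h. DO was lower in pairs 1 and 2 and slightly higher in pair 3. At 22 h it had 2399.5, 7342 and 7961 CPM in co-culture and 13380.3, 11094 and 17181 CPM in DO. There each DO sample lay above each co-culture sample. Its log2 fold changes were -1.37 (SE 0.46, adjusted p = 0.591) and 1.38 (SE 0.32, adjusted p = 0.187), and the change between times was 2.76 (SE 0.68, adjusted p = 0.141).

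Predicted miR-835 had 4134, 3007 and 1689 CPM in co-culture and 1254, 359.8 and 1657 CPM in DO at 1 h, so the groups were just apart, with DO below. At 22 h it had 1409, 4254 and 4675 CPM in co-culture and 8219, 6601 and 8792 CPM in DO, and DO was above. The log2 fold changes were -1.48 and 1.35. Predicted miR-318-0 had 1562, 847 and 616 CPM in co-culture and 365, 327 and 446 CPM in DO at 1 h, all DO samples below, and 297, 2093 and 1139 CPM in co-culture and 710.0, 2159.7 and 2270.4 CPM in DO at 22 h, all DO samples above their partners, with log2 fold changes of -1.32 and 0.72. Predicted miR-319 gave -1.27 and 0.73, and miR-895 -1.11 and 1.21, each lower in 3 of 3 pairs at 1 h and higher in 3 of 3 at 22 h. The changes between times ran from 2.05 to 2.83 over the 5 sets of counts, each with an edgeR adjusted p of 0.141. At 6 h the same 5 values were -0.95 for miR-318-0, -0.94 for miR-319, -0.51 for miR-559, -0.52 for miR-835 and -0.98 for miR-895. These values depended on single pairs. At 22 h they lay between 0.50 and 0.95 without replicate 1, between 1.15 and 1.83 without replicate 2 and between 0.64 and 1.64 without replicate 3. All 5 were past the threshold at 22 h and in the interaction test without replicate 2, and none was without replicate 1 or without replicate 3, although predicted miR-559 and miR-835 at 22 h had an adjusted p under 0.05 and a log2 value under 1 without replicate 1. At 1 h none was past it with any 1 of the 3 pairs left out, and the value of predicted miR-559 ran from -2.21 to -0.69 and that of miR-835 from -2.31 to -0.84, in both cases weakest without replicate 2.

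**Figure D3:**
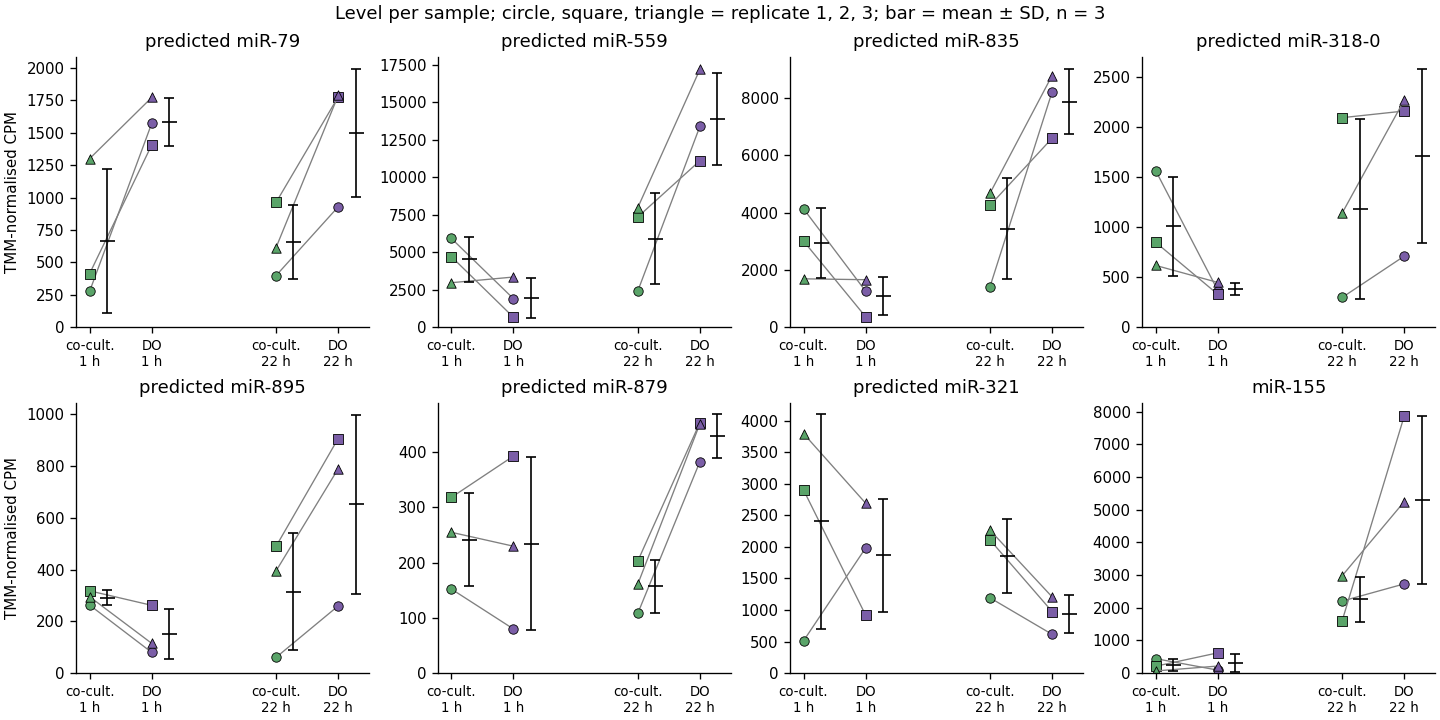
TMM-normalised CPM of 8 miRNAs in each of the 12 samples, co-culture in green and DO in purple, with 1 line per same-numbered pair and the mean with its SD (n = 3) beside it. Predicted miR-79 is higher in DO in all 6 pairs, predicted miR-835, miR-318-0 and miR-895 are lower in DO in the 3 pairs at 1 h and higher in the 3 pairs at 22 h, and miR-879, miR-321 and miR-155 have the same direction in all 3 pairs at 22 h.

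The largest value of the interaction test was that of miR-206, a muscle-enriched miRNA, which did not pass the count filter at either time alone. Its levels were 27.7, 74.1 and 1367 CPM in co-culture and 34.2, 32.7 and 140.2 CPM in DO at 1 h, where 1 co-culture library held most of the counts, and 53.9, 101 and 58.4 CPM in co-culture and 123, 279 and 918 CPM in DO at 22 h, where DO was higher in every pair. At 1 h, 3 counts equalled 40.3 CPM in co-culture replicate 1 and 35.7 and 91.8 CPM in DO replicates 1 and 2, above their levels. Scaled with all samples of the time, intact complexes had 34.5, 5000 and 0 CPM at 1 h and 40.0, 2374 and 10.6 CPM at 22 h. Carbenoxolone-treated complexes ran from 17.6 to 915 CPM at 1 h and from 219 to 1450 CPM at 22 h. The interaction value of miR-206 was 4.81 (SE 0.93, unadjusted p = 3.11e-04, edgeR adjusted p = 0.141). miR-99b, a member of the miR-99 and miR-100 family, had an interaction value of 3.24 (adjusted p = 0.292), with all DO samples above the co-culture samples at 22 h. It was rare, with 135 counts over the 12 samples together, and did not pass the count filter at either time alone.

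Over all 404 miRNAs tested at both times, 23 went one way in 6 of 6 pairs (5.69%), 8 higher and 15 lower in DO, and 14 went one way in all pairs at 1 h and the other way at 22 h (3.47%). These numbers count copies with identical counts separately. Such copies were predicted miR-778 and miR-779 among the higher, miR-479 and miR-480 among the lower and miR-877 and miR-936 among the opposite ones. Of the 404, 107 were known and 297 predicted, and the split of known and predicted by direction was not tested. All 8 higher ones were predicted, with common log2 fold changes from 0.14 to 1.37. Of the 15 lower ones, 8 were known, with common values between -0.46 and -0.11. They were miR-16b, miR-19b, miR-25, miR-93, miR-27b, miR-7, miR-200c and miR-503-5p, and their adjusted p was 0.779 or more. miR-16b, the most abundant known miRNA, is one of a family that slows the cell cycle, and it averaged 78975 ± 4215 and 73340.4 ± 8360.0 CPM at 1 h in co-culture and DO (SD, n = 3), a log2 fold change of -0.11, and -0.16 at 22 h. miR-7, known for roles in secretory cells, gave -0.22 and -0.24. miR-503-5p gave -0.33 and -0.61.

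The 10 most abundant known miRNAs had small fold changes. In order of their mean level they were miR-16b, miR-10b, miR-148a, let-7a-5p, miR-16a, let-7f, miR-122, miR-7, let-7i and miR-30d. Their log2 fold changes lay between -0.24 (miR-148a) and 0.40 (let-7a-5p) at 1 h and between -0.24 (miR-7) and 0.10 (let-7a-5p) at 22 h, and the widest bounds of their 95% intervals were -0.66 and 0.79 at 1 h and -0.56 and 0.48 at 22 h. miR-122, a hepatocyte miRNA, was among them at 11621 ± 2671 CPM in co-culture at 1 h (SD, n = 3). miR-21-5p, which is abundant in cumulus and granulosa cells and opposes apoptosis, gave -0.15 (95% interval -0.67 to 0.37) at 1 h and 0.12 (95% interval -0.30 to 0.54) at 22 h.

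Lists of related miRNAs were examined next, described by their counts and medians beside all miRNAs tested. Of the let-7 family and the related miR-98, 5 of 8 tested members were above 0 and 3 below, with a median of 0.091 against -0.031 over all miRNAs tested at 1 h, and 6 of 8 tested members were above 0 and 2 below, with a median of 0.092 against -0.007 over all miRNAs tested at 22 h. In the miR-30 family, 2 of 5 tested members were above 0 and 3 below, with a median of -0.018 against -0.031 over all miRNAs tested at 1 h, and 1 of 5 tested members were above 0 and 4 below, with a median of -0.24 against -0.007 over all miRNAs tested at 22 h. None of the members was called in either family. In the miR-17-92 and miR-106 clusters, a set of cell growth miRNAs, 1 of 9 tested members were above 0 and 8 below, with a median of -0.38 against -0.031 over all miRNAs tested at 1 h, and 3 of 9 tested members were above 0 and 6 below, with a median of -0.16 against -0.007 over all miRNAs tested at 22 h. All 3 pairs went one way in 5 members of these clusters at 1 h, all lower in DO, against 24.7% of all miRNAs, and in 6 members at 22 h, 5 lower and 1 higher, against 31.2%. The higher one was miR-92a (0.28). Of the cluster members, miR-19b (-0.61 and -0.39), miR-93 (-0.34 and -0.16) and miR-25 (-0.38 and -0.15) were lower in 6 of 6 pairs. The summed level of the clusters was 22214 to 29866 CPM in co-culture and 22103 to 25413 CPM in DO at 1 h. At 22 h it was 23564 to 26645 and 23661 to 26487 CPM, and the groups overlapped at both times. In pair 2 at 1 h the sum was higher in DO.

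miRNAs linked to cumulus and granulosa cells were checked because neither group should hold such cells. Of 18 listed, 7 had counts enough for testing at each time. Their summed level was 9222 to 12417 CPM in co-culture and 9090.1 to 9747 CPM in DO at 1 h, and 11292 to 13184 and 11291 to 18810.0 CPM at 22 h. The groups overlapped at both times. The 22 h DO maximum was in replicate 2, the sample with the highest miR-155. Over all 12 samples together, the most counted of the list were miR-21-5p (4414 counts), miR-155 (1705), miR-143 (1593), miR-503-5p (1419), miR-202 (510), a gonadal miRNA, and miR-424-5p (476). At the other end, miR-375, miR-450a and miR-214 had 1 or 2 counts and miR-212 had 0. In the cumulus-linked list, 2 of 7 tested members were above 0 and 5 below, with a median of -0.18 against -0.031 over all miRNAs tested at 1 h and 3 of 7 tested members were above 0 and 4 below, with a median of -0.10 against -0.007 over all miRNAs tested at 22 h. Fewer cumulus cells and less miRNA per cell cannot be told apart in pooled oocytes.

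Of 9 miRNAs of blood and immune cells, miR-144 and miR-142-3p were at 0 in all 12 samples and miR-451, the red cell miRNA, had 6 counts in all. miR-146a, miR-146b and miR-150 were tested, and none was called, with 1 above 0 and 2 below at each time and medians of -0.11 at 1 h and -0.065 at 22 h. The summed level of the 9 was 3102 to 4409 CPM in co-culture and 2575 to 3853 in DO at 1 h and 3038 to 3936 and 2995 to 3709.7 at 22 h, which overlapped.

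miRNAs reported in extracellular vesicles were of interest because vesicles could cross the insert. Their summed level was 219774 to 236577 CPM in co-culture and 197152 to 233493 in DO at 1 h, and 231742 to 267818 and 214557 to 245966 at 22 h, with overlap at both times. Of 19 listed, 15 were tested at each time, and 5 of these 15 were above 0 and 10 below, with a median of -0.11 against -0.031 over all miRNAs tested at 1 h and 6 of these 15 were above 0 and 9 below, with a median of -0.065 against -0.007 over all miRNAs tested at 22 h. miR-27b, lower in DO in 6 of 6 pairs, gave -0.16 and -0.35. Since the list holds miRNAs that the oocyte itself expresses, a share taken up from the medium was not measured.

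The 18 predicted miRNAs with a printed sequence were chosen by the study. Some, such as miR-79, miR-559, miR-895 and miR-879, were called in comparisons that include samples used here, so their direction is not independent evidence. Others were called only at 6 h, such as miR-137, or only between intact and carbenoxolone-treated complexes, such as miR-162. The study's list of calls does not hold miR-589 or miR-723. Of the 18, 17 were tested at each time. At 1 h 8 were above 0 and 9 below, with a median of -0.015, and at 22 h 13 were above and 4 below, with a median of 0.57, against -0.031 and -0.007 over all miRNAs. With an unadjusted p under 0.05 there were 2 higher and 3 lower in DO at 1 h and 6 higher and 2 lower at 22 h. Their summed level was 16938 to 29505 CPM in co-culture and 32181 to 37984 CPM in DO at 22 h, where the groups did not overlap, and 22109 to 27625 and 23403 to 28277 CPM at 1 h, where they did. Predicted miR-559 carried the separation at 22 h, since without it the sums were 14539 to 22162 CPM in co-culture and 18801 to 21266 CPM in DO, which overlapped.

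**Figure D4:**
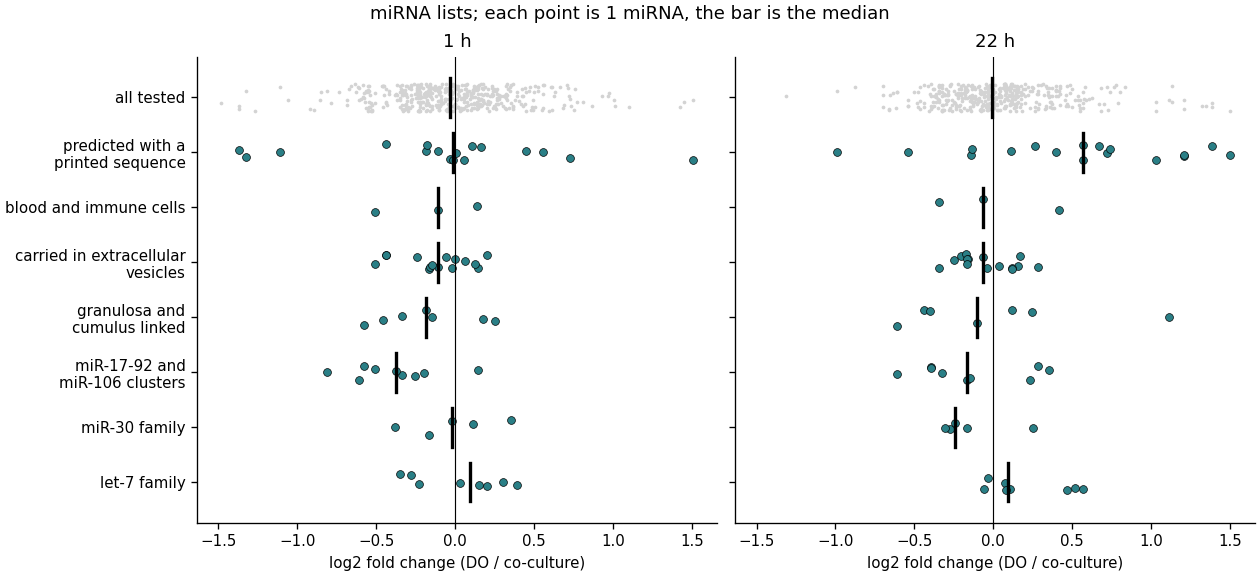
Log2 fold change of DO over co-culture (horizontal, in log2 units) at 1 h and at 22 h for the miRNAs of 7 lists and for all miRNAs tested, each point being 1 miRNA and the bar the median. The medians of the 6 lists of known miRNAs stay between -0.38 and 0.09, and that of the predicted miRNAs with a printed sequence is 0.57 at 22 h.

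Detection was also compared. At 1 h 1078 miRNAs had a count in both groups, 87 in co-culture only and 67 in DO only. At 22 h 1083 were in both, 102 in co-culture only and 57 in DO only. The deepest library was co-culture replicate 1 at 22 h (158481 counts), and the shallowest was DO replicate 2 at 1 h (32676 counts). The part of depth in these numbers was not tested. miRNAs with a count in all 3 samples of a group and none of the other numbered 4 for co-culture and 1 for DO at each time, and all but 1 had at most 9 counts in all 3 samples together. The exception was predicted miR-247, with 5, 23 and 1 counts in co-culture at 1 h and 0 in DO, where a count of 0 allows up to 3 counts per library.

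The pairs themselves agreed little. Across the 404 miRNAs, the log2 DO over co-culture ratios of 2 pairs correlated between -0.15 and 0.068 (Pearson's r) within 1 h and between 0.022 and 0.20 within 22 h. Between a pair at 1 h and a pair at 22 h it ran from -0.25 to 0.18. For miRNAs with a mean of 50 counts or more (189 miRNAs), it was between -0.18 and 0.18 within 1 h and between 0.074 and 0.32 within 22 h. These are descriptions across miRNAs that share libraries.

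**Figure D5:**
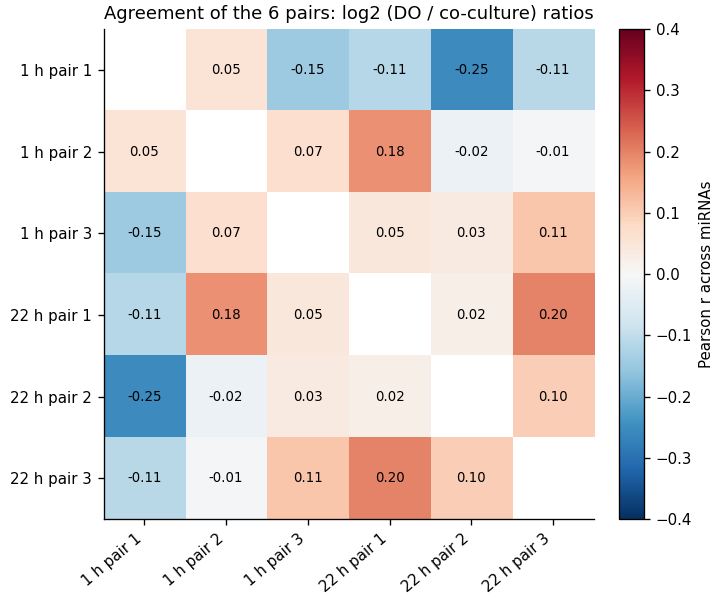
Pearson correlation across 404 miRNAs of the log2 DO over co-culture ratios between each 2 of the 6 pairs, 3 per time, with red for positive and blue for negative values. The highest value is 0.20, between 2 pairs at 22 h, and the lowest is -0.25, between pair 1 at 1 h and pair 2 at 22 h.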

How the data were processed

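The 12 samples compared are miRNA libraries of bovine oocytes made with unique molecular identifiers. The deposited values are whole-number counts per mature miRNA, which the authors made by deduplicating with UMI-tools, aligning to ARS-UCD1.2 and assigning reads to miRBase miRNAs or to miRNAs predicted with miRPro. The authors did not normalize them. Known and predicted tables were joined (1995 miRNAs, 1314 with a count in the 12 samples, 370 predicted miRNAs sharing identical counts with another). Such copies count as separate miRNAs unless stated. Total counts set the precision, and floors are 3 counts.

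Each comparison used edgeR 4.0.16 (limma 3.58.1, R 4.3.3) on its own samples, with the earlier (legacy) quasi-likelihood behaviour, TMM, filterByExpr (minimum count 10, minimum total 15), the replicate number as a block, as the study's methods enter the ovary pool, and Benjamini-Hochberg adjustment. The interaction and common fits used all 12 samples with the pair as a block. DESeq2 1.42.0 was an alternative. Standard errors are the log2 fold change over the square root of F. Levels and pair ratios use TMM-scaled CPM, with a prior count of 2 for ratios. Replicates of a group differed by more than sampling noise (chi-square over degrees of freedom 3.86 to 10.7 for 12 pairs of libraries). The fit was tested on simulated data with known changes and no difference between replicate numbers. Of 441 simulated miRNAs tested at 1 h, 95 were given a 2-fold and 93 a 4-fold change. Of 403 at 22 h, these numbers were 98 and 91. True 2-fold changes, which lie at the fold change threshold itself, were called for 31.6% of miRNAs at 1 h and 56.1% at 22 h. True 4-fold changes were called for 98.9% at each time. Of unchanged miRNAs, 4 of 253 were called at 1 h and 0 of 214 at 22 h. With so many changed miRNAs the Benjamini-Hochberg adjustment is more lenient, so these shares cannot tell how often a lone change would be called.

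The miRNAs named were those called in a fit, the 8 with the smallest p in each direction per time, those with an unadjusted p under 0.05 at both times, the 10 most abundant known ones, the 18 predicted ones with a printed sequence, miR-21-5p, miR-155, miR-206 and list members. Predicted miR-247 and those of the 8 known miRNAs lower in 6 of 6 pairs that fall outside this rule were chosen after their values were seen. The members and lists were chosen with earlier results of these data known. The alternatives were other normalizations, filters, edgeR options, DESeq2, no block, a separate or joint fit and leaving out each pair, and were run for 64 single log2 values given in the text. The same comparison at 6 h was fitted only to give values beside these, and mature sequences of known miRNAs were not used here.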

Additional observations from a re-analysis of the deposited data

Results flagged for a closer look

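Among the named miRNAs, 7 went one way in all 3 pairs at 1 h and the opposite way in all 3 pairs at 22 h, and the difference was tested as the interaction of group and time in edgeR. On the log2 scale, the 22 h minus 1 h value was 2.10 for predicted miR-318-0, 2.05 for predicted miR-319, 2.83 for predicted miR-835 and 2.36 for predicted miR-895, each with an adjusted p of 0.141. It was 1.39 for predicted miR-134 (edgeR adjusted p = 0.468). In the other direction, it was -0.65 for predicted miR-723 (edgeR adjusted p = 0.920) and -0.19 for miR-26a (edgeR adjusted p = 0.942). None of the 7 passed the threshold. Of 404 miRNAs tested at both times, 14 (3.47%) showed such opposite pairs. With groups of 3, no sample was tested as standing apart from its group.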

How the results depend on the processing

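The fits as reported called 0 miRNAs at 1 h, at 22 h, for the change between the times and over both times. Without the low-count filter, the calls were 7, 7, 8 and 1. With known and predicted miRNAs fitted apart, 7 were called at 1 h and 1 at 22 h. DESeq2 called 3 at 22 h and 1 over both times, the edgeR 4 behaviour called 1 for the change (miR-206), and a minimum of 10 counts in every sample and the robust option each called 1 over both times (predicted miR-79). With 1 pair a time left out, calls ranged from 0 to 8 at 1 h, 0 to 12 at 22 h, 0 to 7 for the change and 0 to 0 over both times, in fits with 2 pairs a time. They were 8, 4 and 2 without replicate 1 for the first 3 fits, 0, 12 and 7 without replicate 2, and 0, 0 and 0 without replicate 3. The causes were not tested. With no replicate block the calls were 0 in each of the 4 fits, with 13, 21, 16 and 9 miRNAs at an unadjusted p under 0.05. Same-numbered samples correlated between 0.061 and 0.35 in their deviations from group means and other numbers between -0.31 and 0.12. Of 12 samples, 11 correlated best with their own number, a hint from the data and not from the design. Deviations within a group cancel out and each correlation was used from both sides, so these are not 12 separate checks. Of the log2 values named in the text, the direction turned where a pair was left out for miR-155 at 1 h (-0.51 to 1.60, negative without replicate 2, at -0.51, and without replicate 3, at -0.28), miR-25 at 22 h (-0.18 to 0.016) and miR-21-5p at 22 h (-0.063 to 0.32). Of the other alternatives for single values, 48 passed the threshold and 820 left direction and call as reported. With a pair left out, list medians ranged at 1 h from -0.22 to 0.045 for the miR-30 family and from 0.011 to 0.16 for the predicted miRNAs with a sequence, and at 22 h from -0.28 to 0.23 for the cumulus-linked list and from -0.19 to 0.25 for the blood list. The Pearson correlation of start and end was -0.13 for miRNAs with a mean of 50 counts or more, where Spearman's was 0.13 and 112 of 189 had the same sign (59.3%), and where the median correlation between pairs was 0.12 at 1 h and 0.24 at 22 h, and for known miRNAs alone it was -0.25 at 1 h. The alternatives for single values of the change and common fits, for list medians and for the sum without predicted miR-559 were chosen after seeing the data.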
